A study of Mus musculus with 6 samples.

Results

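Open chromatin was described at 38 genes of cell-matrix adhesion and matrix turnover, 21 integrin genes, 15 matrix metalloprotease genes and the metalloprotease inhibitor genes *Timp2* and *Timp3*, in neural stem and progenitor cells (NSPCs) made from mouse embryonic stem cells. The assay was ATAC-seq, in which a transposase inserts sequencing adapters into accessible DNA, so that reads pile up at promoters and enhancers. Parent NSPCs were clone 5B, a 129S1/Cast F1 hybrid line with Sox2-mCherry on the 129 allele and no deletion. ΔSRR2-18 NSPCs were clone 47D, which has the same hybrid background and the same Sox2-mCherry allele and lacks the *Sox2* enhancer cluster SRR2-18 on both alleles. Each genotype is therefore 1 clone, grown on poly-D-lysine and laminin in N2B27 medium with EGF and bFGF, and laminin is itself an integrin ligand that every culture shared. The labels name 3 cultures per genotype, 30000 cells per culture and 50 to 60 M reads per library, but the authors' peak lists pool the cultures of a genotype. The values below therefore have no replicate error, and the genotypes are set side by side without a test.

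A region is an interval of the authors' conservative peak list. It was assigned to the protein-coding gene whose transcription start site (TSS) lay nearest to its strongest summit in the GENCODE M21 annotation of mm10 (GRCm38), at most 50 kb away. By this rule the 38 genes held 154 of the 82885 parent regions and 224 of the 107480 ΔSRR2-18 regions, and 37 of the 38 genes held a region in at least 1 list. *Mmp7* held none. A region is called parent-only or deletion-only where no base of it overlapped a region of the other genotype's list, and shared otherwise. Height is the number of reads at the summit divided by the genome-wide mean background of the same list, so that the lists, whose depths differed, can be set side by side.

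Integrins are cell-surface receptors made of an alpha and a beta subunit that tie the extracellular matrix to the actin cytoskeleton. Alpha subunits largely set the ligand, such as collagen, laminin or fibronectin, and *Itgb1* encodes the beta subunit shared by most of them. Matrix metalloproteases are zinc-dependent enzymes that cut matrix proteins and release factors held in the matrix, and TIMPs bind and inhibit them. Neural stem cells use laminin-binding integrins to hold on to the ventricular surface and to blood vessels. AP-1, a dimer of JUN and FOS family proteins, is known to bind the promoters of several metalloprotease genes.

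The 6 windows that follow are from regions found in the ΔSRR2-18 list alone and hold an AP-1 match, TGACTCA on either strand, within 1 kb of a metalloprotease TSS. They were chosen because they hold such a match, and they show the letters around it. Each runs up to 100 bases to either side of the summit on the forward strand of mm10 (GRCm38), was cut before any untranslated bases, and has the AP-1 match in capitals.

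*Mmp13*, upstream of the start site (chr9:7272369-7272513): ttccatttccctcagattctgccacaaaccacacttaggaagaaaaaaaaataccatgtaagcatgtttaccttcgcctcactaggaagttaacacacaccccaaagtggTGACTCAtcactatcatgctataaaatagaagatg
*Mmp10*, upstream of the start site (chr9:7502151-7502351): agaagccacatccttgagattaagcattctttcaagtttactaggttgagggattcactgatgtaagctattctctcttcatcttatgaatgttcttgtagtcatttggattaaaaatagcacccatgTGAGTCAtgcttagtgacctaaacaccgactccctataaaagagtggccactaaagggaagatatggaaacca
*Mmp12*, upstream of the first start site (chr9:7343217-7343417): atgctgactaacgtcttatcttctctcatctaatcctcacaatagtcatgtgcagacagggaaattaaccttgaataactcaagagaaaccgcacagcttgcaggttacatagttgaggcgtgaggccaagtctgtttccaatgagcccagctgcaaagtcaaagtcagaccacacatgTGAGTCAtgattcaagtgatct
*Mmp12*, upstream of an internal start site (chr9:7347220-7347373): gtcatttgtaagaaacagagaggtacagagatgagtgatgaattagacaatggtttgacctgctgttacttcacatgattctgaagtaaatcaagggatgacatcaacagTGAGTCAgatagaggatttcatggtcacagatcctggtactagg
*Mmp19*, upstream of the start site (chr10:128790792-128790909): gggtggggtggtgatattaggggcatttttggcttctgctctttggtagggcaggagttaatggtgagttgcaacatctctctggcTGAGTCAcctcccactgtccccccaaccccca
*Mmp9*, upstream of an internal start site (chr2:164947645-164947845): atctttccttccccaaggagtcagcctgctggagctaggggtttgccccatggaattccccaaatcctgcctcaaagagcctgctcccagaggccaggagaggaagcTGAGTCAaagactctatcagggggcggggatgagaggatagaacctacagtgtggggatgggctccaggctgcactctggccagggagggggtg

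In the *Mmp13* window the middle of the AP-1 match lay 32 bp upstream of the TSS, and an ETS match at 59 bp and a RUNX match at 116 bp stood further upstream. The AP-1 match lay 70 bp upstream of the *Mmp10* TSS and 29 bp upstream of the *Mmp19* TSS. At *Mmp12* it lay 998 bp upstream of the first TSS and, in the other window, 41 bp upstream of an internal TSS, and at *Mmp9* it lay 464 bp upstream of an internal TSS within the gene. In 5 of the 6 windows the match was within 31 bp of the summit, and in the first *Mmp12* window it was 82 bp away. These are matches of letters and not measured binding.

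The next 4 windows are the strongest parent-only and deletion-only regions by −log10 p at the integrin genes and at the metalloprotease and TIMP genes. They are shown because they mark the ends of the comparison, and AP-1 matches are again in capitals.

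*Itga9* intron, parent-only (chr9:118652156-118652356): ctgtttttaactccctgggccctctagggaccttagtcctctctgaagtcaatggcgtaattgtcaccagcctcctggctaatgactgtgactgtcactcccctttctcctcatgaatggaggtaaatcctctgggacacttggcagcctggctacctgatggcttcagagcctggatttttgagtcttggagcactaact
*Mmp15* upstream, parent-only (chr8:95349095-95349295): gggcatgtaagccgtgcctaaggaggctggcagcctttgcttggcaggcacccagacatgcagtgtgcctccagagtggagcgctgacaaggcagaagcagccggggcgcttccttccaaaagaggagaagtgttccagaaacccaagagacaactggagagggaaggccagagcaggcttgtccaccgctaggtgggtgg
*Itgav* intron, deletion-only (chr2:83744397-83744597): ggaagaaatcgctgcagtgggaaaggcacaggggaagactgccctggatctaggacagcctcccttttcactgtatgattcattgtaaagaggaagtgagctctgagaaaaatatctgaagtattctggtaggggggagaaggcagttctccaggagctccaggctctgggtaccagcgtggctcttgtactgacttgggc
*Timp2* upstream, deletion-only (chr11:118365218-118365418): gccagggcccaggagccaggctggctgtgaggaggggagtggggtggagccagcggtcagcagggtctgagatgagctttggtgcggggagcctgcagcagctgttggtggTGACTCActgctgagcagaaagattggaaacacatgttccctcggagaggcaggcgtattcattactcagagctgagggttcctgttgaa

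Of these 4 windows, the *Timp2* window held an AP-1 match, 14 bp from the summit, and the *Itgav* window held an ETS match. Neither parent-only window held a match to any of the 6 motifs searched.

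The pooled lists differed in depth as well as in length. Mean background coverage was 38.8 reads for parent and 19.7 reads for ΔSRR2-18 NSPCs, which is 1.98 times deeper for the parent, although the labels give the same read numbers. A region missing from a list was below that list's threshold and not necessarily closed. The lowest region of the 38 genes had a height of 3.86 in the parent list and 4.32 in the ΔSRR2-18 list. In the window 2 to 19 kb downstream of the *Sox2* TSS, for which SRR2-18 is named, the parent list held 4 regions with heights up to 58.0 and the ΔSRR2-18 list held 0. The promoters of all 7 neural stem and progenitor markers examined (*Sox2*, *Nes*, *Sox1*, *Pax6*, *Vim*, *Fabp7* and *Msi1*) held a region in each list, with heights of 47.2 to 130.2 in parent and 12.1 to 101.9 in ΔSRR2-18 NSPCs. Promoter regions of mesenchymal markers were found at 3 of 5 genes in the parent list and 5 of 5 in the ΔSRR2-18 list, of epithelial markers at 1 and 3 of 4, of endothelial markers at 1 and 2 of 3, of neuronal markers at 1 and 2 of 3, and of leukocyte markers at 1 of 3 in both. The mesenchymal promoter heights in parent and ΔSRR2-18 NSPCs were 73.4 and 54.5 at *Twist1*, 30.9 and 34.3 at *Prrx1*, 0 and 23.4 at *Pdgfrb*, 42.7 and 85.5 at *Col1a1*, and 0 and 11.4 at *Col1a2*. The epithelial ones were 4.07 and 19.5 at *Cdh1*, 0 and 16.7 at *Epcam*, 0 and 43.1 at *Krt8*, and 0 in both at *Krt18*. The endothelial ones were 0 and 30.6 at *Pecam1*, 48.1 and 36.7 at *Kdr*, and 0 in both at *Cdh5*. Marker heights were thus higher in ΔSRR2-18 NSPCs at 4 of 5 mesenchymal and 3 of 4 epithelial genes. They were lower at all 7 neural stem and progenitor markers, such as *Sox2* (115.3 and 36.2), *Fabp7* (94.3 and 22.6) and *Vim* (104.6 and 101.9). The neuronal heights were 92.4 and 76.6 at *Tubb3*, 0 and 13.3 at *Stmn2*, and 0 in both at *Dcx*. Of the pluripotency markers, *Esrrb* had 61.0 and 23.1, and *Nanog* and *Pou5f1* had 0 in both. Of the ΔSRR2-18 regions of these markers, 30.0% were deletion-only at neural stem and progenitor, 58.5% at mesenchymal, 72.2% at epithelial and 73.7% at endothelial genes. The share was 80.0% at leukocyte, 54.5% at neuronal and 42.9% at pluripotency genes, against 63.1% of the whole list. Of the parent regions, 48.9% were parent-only at neural stem and progenitor, 30.4% at mesenchymal, 37.5% at epithelial and 58.3% at endothelial genes. That share was 71.4% at leukocyte, 50.0% at neuronal and 38.5% at pluripotency genes, against 52.3% of the whole list. The part of other cell types in the values at the adhesion genes was not tested. In bulk cultures, fewer cells with an open region and less accessibility per cell cannot be told apart.

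Across the 38 genes, the ΔSRR2-18 list held 1.45 times as many regions as the parent list, against 1.3 times over the whole lists. In the parent list, 70 of the 154 regions (45.5%) were parent-only, against 52.3% of all parent regions. In the ΔSRR2-18 list, 138 of the 224 regions (61.6%) were deletion-only, against 63.1% of all ΔSRR2-18 regions. The deletion-only share of these genes was thus close to that of the genome at large, and the parent-only share was lower than it. The whole lists include regions at any distance from a TSS and were not matched to these genes for distance. Over the whole lists the median distance was 38391 bp for parent-only and 48841.5 bp for deletion-only regions. It was 11563.5 and 11619 bp for shared regions of the parent and ΔSRR2-18 lists. Whether distance accounts for the shares at these genes was not tested. The same holds for the other region shares set against the whole lists. With the ΔSRR2-18 list cut to the length of the parent list by −log10 p, 49.4% of the parent regions and 56.5% of the ΔSRR2-18 regions at these genes were specific, against 58.5% and 58.6% of all regions.

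Most genes leaned the same way. More deletion-only than parent-only regions were found at 27 of the 37 genes with a region, against 45.1% of all genes with a region, and fewer at 5, against 27.3%. The counts were equal at the other 5. Of all genes with a region, 67.9% had at least 1 deletion-only region. These shares of genes depend on how many regions a gene holds, which was not matched. In each list most summits lay outside promoters, since 26 parent and 34 ΔSRR2-18 regions were within 1 kb of the TSS of their gene, while 78 and 99 were in an intron of it.

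**Figure D1:**
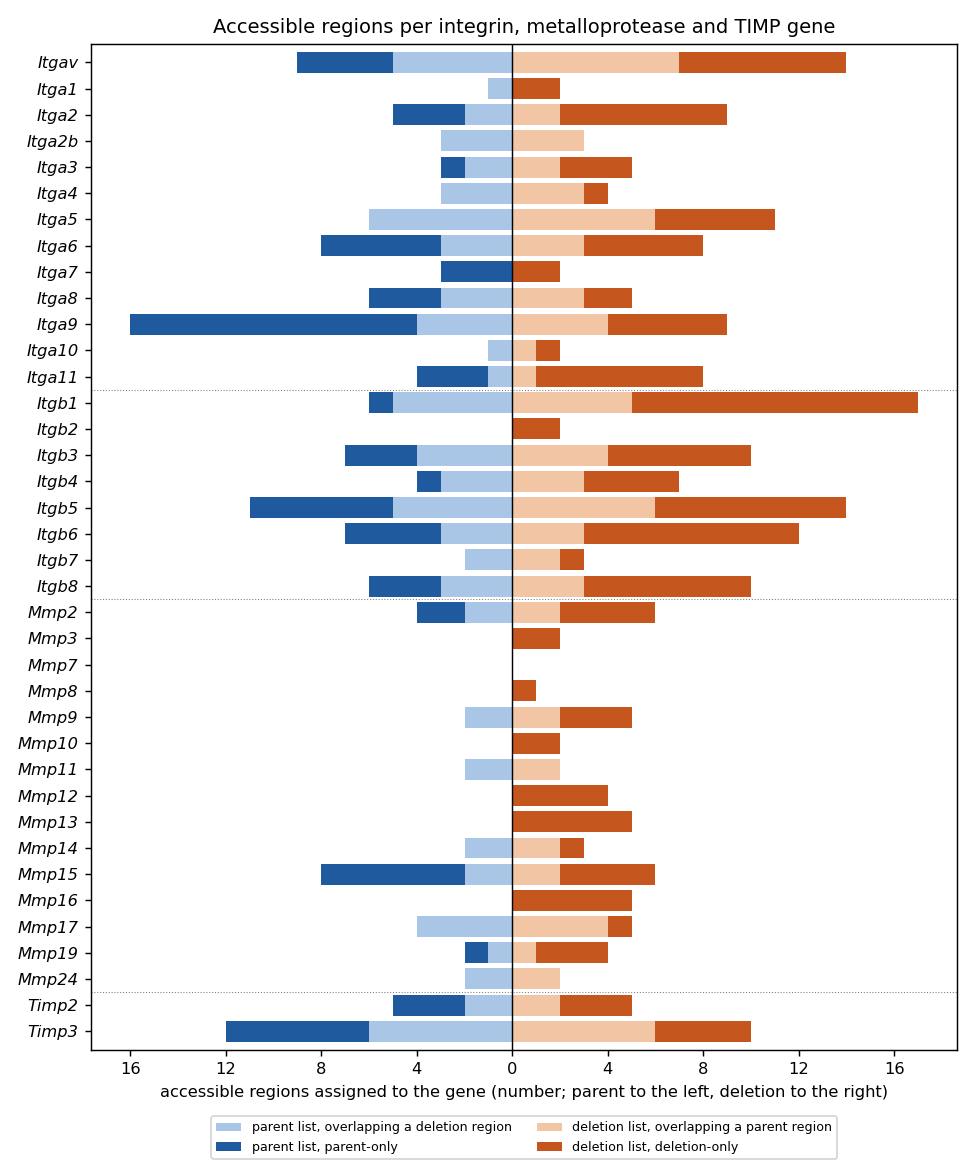
Number of accessible regions assigned to each gene, with the parent list to the left and the ΔSRR2-18 (deletion) list to the right of 0. Dark bars are regions with no overlap in the other list. *Itgb1* has 12 deletion-only regions and 1 parent-only region, *Itga9* has 12 parent-only regions, and 6 metalloprotease genes and *Itgb2* have bars on the right alone.

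Among the collagen-binding alpha subunits, the ΔSRR2-18 list held more regions at every gene. *Itga2* had 5 parent regions, 3 of them parent-only, and 9 ΔSRR2-18 regions, 7 of them deletion-only. *Itga11*, a collagen receptor of fibroblasts, had 4 and 8, with 3 parent-only and 7 deletion-only. *Itga1* had 1 parent region, at its promoter, and 2 deletion-only regions, and *Itga10* had 1 and 2, of which 1 was deletion-only. The ΔSRR2-18 region that overlapped the *Itga1* promoter region had its summit nearest to the TSS of another gene, Gm49395, and is not counted under *Itga1*. In all, 17 of 21 ΔSRR2-18 regions at these 4 genes were deletion-only (81.0%, against 63.1% of the whole list), and 8 of the 17 held an AP-1 match, against 41.6% of all deletion-only regions. The strongest exception was an intronic *Itga2* region, chr13:114923201-114923918, which was parent-only with a height of 95.6.

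The laminin-binding alpha subunits were mixed. *Itga6*, whose product marks many stem cells, had 8 regions in each list, 5 of them specific to each. *Itga3* had 3 parent and 5 ΔSRR2-18 regions, with 1 parent-only and 3 deletion-only. *Itga7*, a laminin receptor best known from muscle, had no shared region at all. Its 3 parent-only regions lay 4024 to 12028 bp from the TSS with heights of 17.7 to 26.4, and the higher of its 2 deletion-only regions, 47 bp upstream of the TSS, had a height of 25.2.

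The RGD-binding alpha subunits recognise an arginine-glycine-aspartate motif in fibronectin, vitronectin and related ligands. *Itgav* had 9 parent and 14 ΔSRR2-18 regions, 4 and 7 of them specific. *Itga5*, which pairs with *Itgb1* as the fibronectin receptor, had 6 parent regions, all shared, and 11 ΔSRR2-18 regions, 5 of them deletion-only. *Itga8* had 6 and 5, with 3 parent-only and 2 deletion-only. *Itga2b*, a platelet integrin, had 3 regions in each list and all were shared. By −log10 p, the strongest deletion-only region of all integrin genes was the *Itgav* intron region printed above, chr2:83744231-83744936, with a height of 112.6 and a place in the top 2.16% of its list. The next strongest of the alpha subunits were at chr15:103393043-103394109 beyond *Itga5* (height 59.5) and chr2:83710048-83710582 upstream of *Itgav* (height 75.7).

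*Itga9*, which encodes a receptor for tenascin-C and osteopontin, had the largest excess of parent-only regions among the 38 genes. It had 16 parent regions, 12 of them parent-only, and 9 ΔSRR2-18 regions, 5 of them deletion-only. An excess of parent-only regions this large or larger was found at 0.731% of genes with a region. Its strongest region, chr9:118651755-118652779, lay in an intron 45.6 kb from the TSS with a height of 146.1 and ranked in the top 2.00% of the parent list. The other parent-only regions of *Itga9* had heights of 4.38 to 34.0, so 1 region stood far above the rest. The related *Itga4* had 3 parent regions, all shared, and 4 ΔSRR2-18 regions, 1 of them deletion-only.

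All 8 beta subunit genes had more deletion-only than parent-only regions. Over these genes 49 of 75 ΔSRR2-18 regions (65.3%) and 18 of 43 parent regions (41.9%) were specific, against 63.1% and 52.3% of the whole lists, so the deletion-only share was close to that of all regions. *Itgb1* had 6 parent and 17 ΔSRR2-18 regions, with 1 parent-only and 12 deletion-only, and 0.346% of genes had an excess of deletion-only regions at least as large. The 12 lay on both sides of the TSS with heights of 8.75 to 114.7, and 6 held an AP-1 match. The strongest, chr8:128666507-128667325, lay 18.7 kb upstream of the TSS and held an AP-1 match. The only parent-only region of *Itgb1* had a height of 7.49.

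The partners of alpha v differed in how strong their specific regions were. *Itgb3* had 7 and 10 regions, 3 parent-only and 6 deletion-only. *Itgb5* had 11 and 14, with 6 and 8 specific, *Itgb6* had 7 and 12, with 4 and 9, and *Itgb8* had 6 and 10, with 3 and 7. The strongest deletion-only regions among them were a coding-exon region of *Itgb3*, chr11:104640870-104641652 (height 69.9), and an intron region of *Itgb5*, chr16:33888908-33889558 (height 93.2), each with an AP-1 match. The strongest parent-only regions, by −log10 p, were in introns of *Itgb5* (chr16:33859825-33860653, height 74.0), *Itgb8* (chr12:119219005-119220133, height 41.0) and *Itgb6* (chr2:60714659-60715521, height 52.9), and none of the 3 held an AP-1 match. Both directions were therefore present within the same genes.

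The remaining beta subunits have more restricted roles. *Itgb4*, the partner of alpha 6 in the hemidesmosomes of epithelia, had 4 parent and 7 ΔSRR2-18 regions, 1 parent-only and 4 deletion-only. *Itgb2*, a leukocyte subunit, was without a parent region but had 2 deletion-only regions in its introns, with heights of 45.7 and 28.9 and an AP-1 match in each. *Itgb7*, also leukocytic, had 2 and 3 regions, with 1 deletion-only. Of the leukocyte marker promoters, those of *Ptprc* and *Spi1* held no region in either list, and that of *Csf1r* had a height of 20.9 in parent and 50.7 in ΔSRR2-18 NSPCs. The 5 leukocyte alpha subunit genes outside the set (*Itgad*, *Itgae*, *Itgal*, *Itgam* and *Itgax*) had 7 parent and 6 ΔSRR2-18 regions together, of which 4 and 3 were specific.

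The metalloproteases held the genes with the least signal in parent NSPCs. No parent region but at least 1 ΔSRR2-18 region was found at 7 of the 38 genes, *Mmp3*, *Mmp8*, *Mmp10*, *Mmp12*, *Mmp13*, *Mmp16* and *Itgb2*, against 8.6% of all genes with a region. The threshold of at least 4 such ΔSRR2-18 regions was met by *Mmp12*, *Mmp13* and *Mmp16*, against 1.12% of genes. A parent region without any ΔSRR2-18 region was found at 0 of the 38, against 4.15%.

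Of those genes, 5 lie in the metalloprotease cluster of chromosome 9, from 7272514 to 7699585, which spans 427 kb and holds 9 protein-coding *Mmp* genes, 6 of them in the set. These 6 genes had 0 regions in the parent list and 14 in the ΔSRR2-18 list, all deletion-only. *Mmp13*, a collagenase, had 5, with heights of 7.07 to 24.4. *Mmp12*, the macrophage metalloelastase, had 4, with heights of 4.99 to 30.7. The stromelysins *Mmp3* and *Mmp10* had 2 each, with heights of 26.7 and 9.11 at *Mmp3* and of 16.9 and 6.05 at *Mmp10*. *Mmp8*, the neutrophil collagenase, had 1 with a height of 17.5, and *Mmp7*, matrilysin, had 0.

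The signal in this cluster was of moderate strength. The median height of the 14 regions was 13.6, against 14.7 over all deletion-only regions. An AP-1 match was present in 9 of the 14 (64.3%, 95% Wilson interval 38.8 to 83.7), an interval that includes the 41.6% of all deletion-only regions, and the 14 regions share a locus and a library, so they are not independent. The lower-scoring *Mmp3* region has its summit 94 bp from the start of *Mmp1a*, which the annotation does not class as protein-coding. Of the other genes in the cluster, *Mmp1b* had a deletion-only region 27 bp from its TSS with a height of 45.3, and the cluster window held 2 parent regions, both shared, at *Mmp27* (height 50.7 in parent and 47.8 in ΔSRR2-18 NSPCs) and *Mmp20* (11.9 and 9.87). The locus was thus not without open chromatin in parent NSPCs. In the authors' optimal list, which is longer, the parent had 2 regions at the 6 genes. They lay 19.2 kb from the *Mmp13* TSS (height 7.49) and 22.2 kb from the *Mmp7* TSS (height 4.27). Neither overlapped a region of the ΔSRR2-18 conservative list.

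*Mmp16*, which encodes a membrane-type metalloprotease, also had no parent region in the conservative list. Its 5 deletion-only regions spread over 41.4 kb from the promoter into the gene, with heights of 13.1 to 29.7. Its promoter region, chr4:17852950-17854466 (height 29.2), does overlap a region of the parent optimal list, so its absence depends on the list used.

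**Figure D2:**
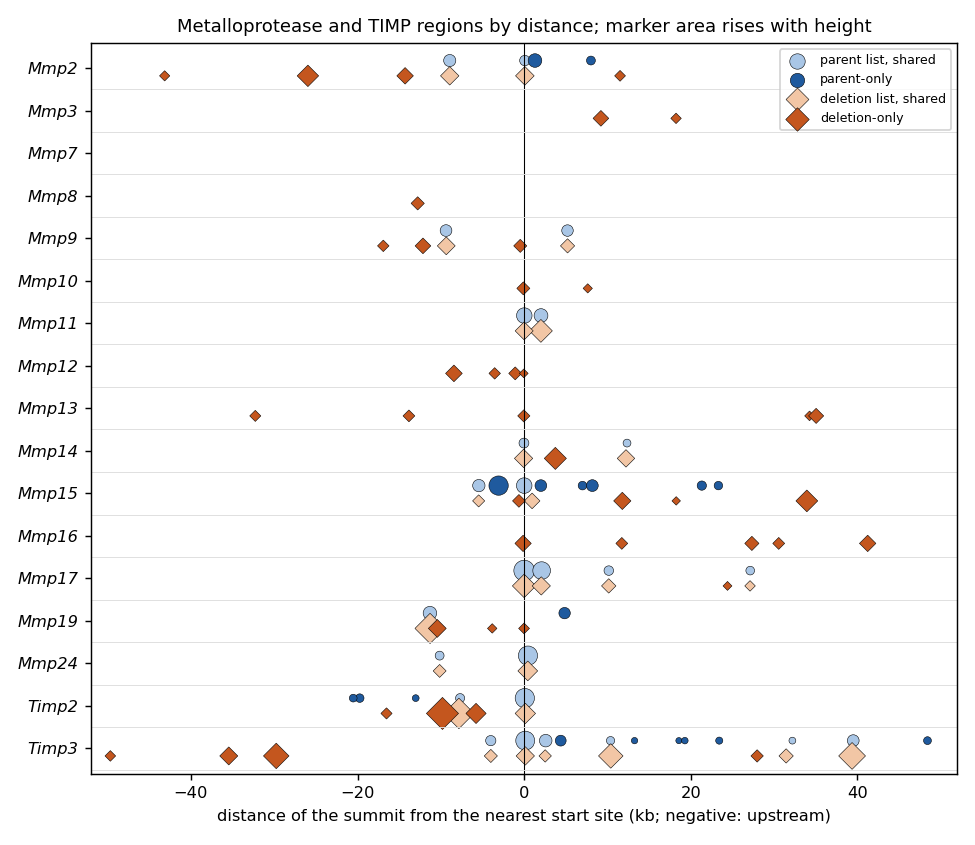
Signed distance of each region's summit from the nearest TSS of its gene in kb, with upstream negative, for the 15 metalloprotease and 2 TIMP genes. Circles are parent and diamonds ΔSRR2-18 regions, dark where the region is in 1 list alone, and marker area rises with height. *Mmp3*, *Mmp8*, *Mmp10*, *Mmp12*, *Mmp13* and *Mmp16* show dark diamonds and no circle.

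The gelatinases *Mmp2* and *Mmp9* degrade denatured collagen and basement membrane collagen. *Mmp2* had 4 parent and 6 ΔSRR2-18 regions, 2 parent-only and 4 deletion-only, and its strongest deletion-only region, chr8:92800985-92801717, lay 25962 bp upstream with a height of 54.2. *Mmp9* had 2 parent regions, both shared, and 5 ΔSRR2-18 regions, 3 of them deletion-only. *Mmp19* had 2 and 4, with 1 and 3 specific, and *Mmp11*, a stromelysin, had 2 in each list, all shared.

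Among the other membrane-type enzymes, *Mmp15* leaned to the parent. It had 8 parent regions, 6 of them parent-only, and 6 ΔSRR2-18 regions, 4 of them deletion-only. Its region at chr8:95348661-95349629, 3073 bp upstream of the TSS, was the strongest parent-only region of the metalloproteases with a height of 90.3. *Mmp14*, which activates pro-*Mmp2*, had 2 parent regions, both shared, and 3 ΔSRR2-18 regions, with a deletion-only intron region of height 57.7 that held an AP-1 match. *Mmp17* had 4 and 5, with 1 deletion-only region of height 5.29, and *Mmp24*, which is known from the nervous system, had 2 in each list, all shared.

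The inhibitors did not lean to the ΔSRR2-18 list. *Timp2* had 5 regions in each list, 3 specific to each, and *Timp3* had 12 parent and 10 ΔSRR2-18 regions, 6 parent-only and 4 deletion-only. Their specific regions differed in strength all the same, since the 9 parent-only regions reached a height of 25.0 at most, whereas a deletion-only region upstream of *Timp2*, chr11:118365106-118365587, reached 127.0 and one in an intron of *Syn3* near *Timp3*, chr10:86270132-86271204, reached 78.7. The *Timp2* region does overlap a region of the parent optimal list, so here too the call depends on the list used.

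At promoters, the genes fell into those open in both lists and those open in 1. A region reached within 1 kb of a TSS in both lists at 24 of the 38 genes, against 59.2% of all protein-coding genes. It did so in the ΔSRR2-18 list alone at 9, against 6.07%, and in the parent list alone at 1, against 2.6%. The 9 were *Itga7*, *Itgb2*, *Itgb4*, *Mmp9*, *Mmp10*, *Mmp12*, *Mmp13*, *Mmp16* and *Mmp19*, with heights of 10.2 at *Mmp19* to 45.7 at *Itgb2*. The parent-only promoter was that of *Itgb6*, with a height of 5.64, and *Itga2b*, *Mmp3*, *Mmp7* and *Mmp8* had none in either list. The *Mmp9* and the lower *Mmp12* promoter regions lay at internal start sites. At *Itgb2* the interval of an intron region reached within 1 kb of a TSS, but its summit lay farther away. The same holds for the higher *Mmp12* region, whose summit lay 1080 bp from the TSS.

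The 3 highest promoters in both lists belonged to the gene of alpha v and to 2 beta subunit genes. *Itgav* had a promoter height of 168.6 in parent and 114.8 in ΔSRR2-18 NSPCs, *Itgb1* 161.8 and 120.5, and *Itgb8*, whose product activates TGF-beta in the brain, 142.7 and 158.0. The alpha subunit promoters of *Itga5* (48.3 and 45.7) and *Itga8* (54.5 and 55.1) had nearly the same height in both lists. Lower heights in ΔSRR2-18 NSPCs were seen, among others, at *Itga1* (82.1 and 46.3), *Itga6* (69.0 and 43.6), *Mmp15* (56.9 and 26.5), *Mmp17* (104.7 and 66.0), *Mmp24* (89.4 and 45.2), *Timp2* (90.1 and 48.4) and *Timp3* (86.6 and 38.1). Higher ones were seen, among others, at *Itga10* (4.66 and 11.2), *Itga11* (9.40 and 15.0), *Itgb7* (11.3 and 36.8) and *Mmp14* (19.8 and 37.9). The summits compared lay 360 bp apart at *Itga1*, 952 bp at *Mmp15* and 419 bp at *Itgb7*. At *Itgb5* the region at the first TSS had 59.5 and 35.8, and a region at an internal TSS had 46.3 and 79.6. The latter heights belong to summits 1038 bp apart. By the authors' fold enrichment, which divides by a local background, both *Itgb5* regions were lower in ΔSRR2-18 NSPCs. The values were 8.19 and 6.97 at the first TSS and 14.6 and 7.57 at the internal TSS. Of the promoters with lower heights, several were higher in ΔSRR2-18 NSPCs by fold enrichment. These were *Itga1* (10.1 and 14.3), *Mmp15* (3.92 and 7.81), *Mmp17* (10.4 and 13.1) and *Mmp24*. The *Itga6* promoter was lower on both scales. Both inhibitor promoters had lower heights in ΔSRR2-18 NSPCs. Of the 8 shared regions of the inhibitor genes, 4 were at least 2-fold higher by height, none of them at a promoter. A *Timp3* intron region, chr10:86302722-86303408, was 2.40-fold lower. By fold enrichment the *Timp3* region chr10:86310438-86311052 alone of the 4 was at least 2-fold higher (12.1 and 26.6). In the others the summits lay 138 to 751 bp apart. The promoters had fold enrichments of 14.8 and 14.7 at *Timp2* and 11.3 and 9.61 at *Timp3*.

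**Figure D3:**
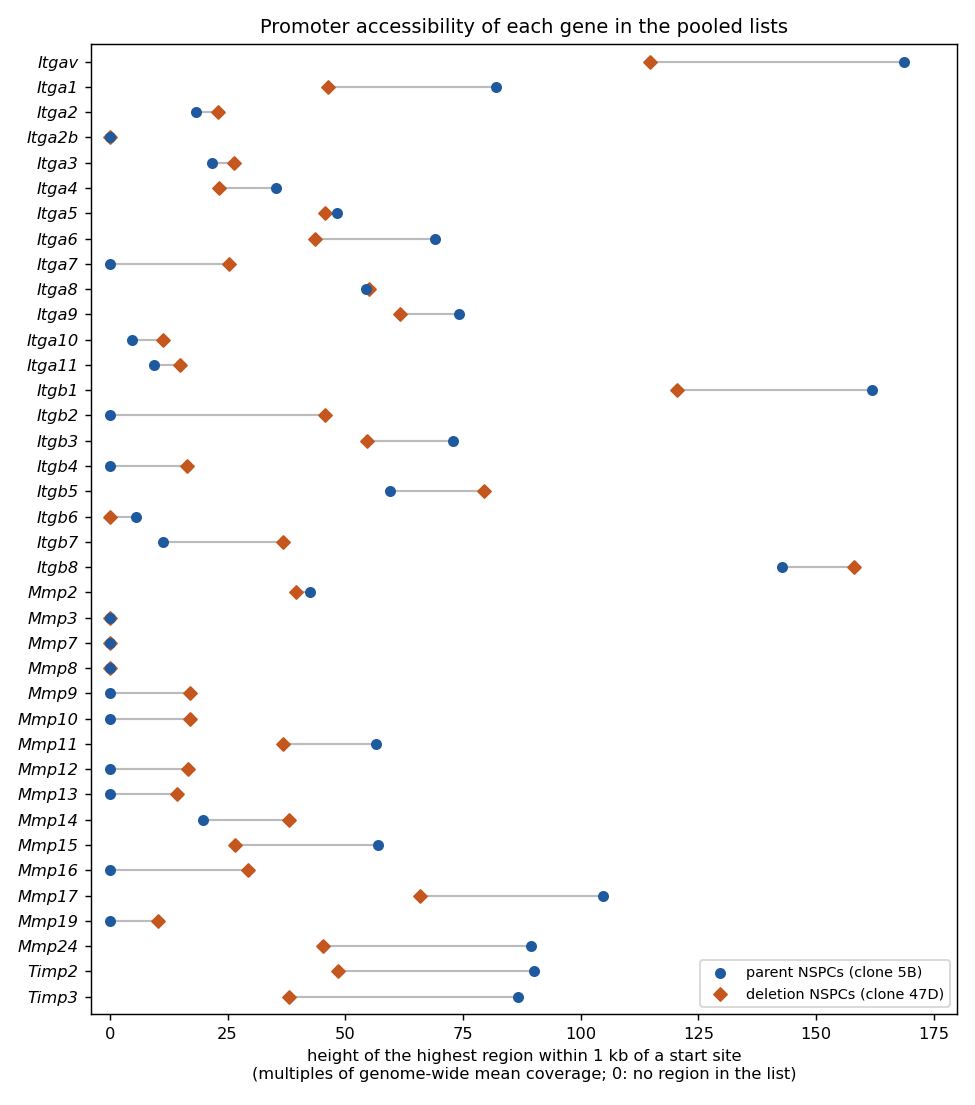
Height of the highest region reaching within 1 kb of a TSS of each gene, in multiples of the genome-wide mean coverage, for parent (circles) and ΔSRR2-18 NSPCs (diamonds). A value of 0 means that the list holds no such region. *Itgav*, *Itgb1* and *Itgb8* are above 100 in both lists, and 9 genes have a circle at 0 and a diamond above it. At *Itgb5* and *Mmp2* the circle and the diamond stand for different regions of the gene.

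For regions present in both lists, the highest summit of each list was compared. There were 84 such regions at the 38 genes, and in 20 of them the summits of the lists lay more than 100 bp apart, so that the heights belong to different positions. Among the ratios and fold enrichments given below this holds for *Itgb3* (chr11:104624664-104625525, 243 bp), *Timp2* (147 bp), *Itgb8* (132 bp), *Itga9* (258 bp) and *Itga4* (241 bp). The median log2 ratio of ΔSRR2-18 to parent height was 0.11 at these genes and −0.24 over all 39072 shared regions, and 54 of the 84 lay above the latter. A height at least 2-fold higher in ΔSRR2-18 NSPCs was found for 21 of the 84, against 15.8% of all shared regions, and at least 2-fold lower for 9, against 16.0%. Relative to the median of all shared regions the counts were 27, against 19.2%, and 6, against 11.3%. By the authors' fold enrichment, which divides by a local background, the counts were 9 higher, against 10.1%, and 9 lower, against 7.37%, so the larger number of higher regions was seen in heights and not in fold enrichment.

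The beta subunits contributed 10 of the 21 higher regions, from 25 shared regions with a median log2 ratio of 0.44. The alpha subunits contributed 5 of 34 (median −0.09), the metalloproteases 2 of 17 (0.13) and the TIMPs 4 of 8 (0.59). By fold enrichment, beta subunit regions at *Itgb4* (3.79 and 13.2), *Itgb1* (11.9 and 25.2) and *Itgb8* (4.89 and 14.7) were at least 2-fold higher. An *Itgb3* (18.4 and 6.39) and an *Itgb6* region (17.1 and 7.33) of the same 10 were at least 2-fold lower. The others of the 10 differed by less than 2-fold on that scale.

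The 5 largest ratios upward were all distal. A region 3477 bp from the *Itgb4* TSS, chr11:115970992-115971504, had a height of 3.86 in parent and 71.1 in ΔSRR2-18 NSPCs, an 18.4-fold difference. An *Itgb3* intron region, chr11:104624664-104625525, had 5.95 and 79.0 (13.3-fold). The others were at *Itga3* (chr11:95096570-95097373, 6.67 and 58.0, 8.70-fold), *Itga5* (chr15:103357955-103359557, 13.4 and 100.4, 7.47-fold) and *Timp2* (chr11:118362602-118363629, 16.3 and 114.6, 7.04-fold). By fold enrichment, which divides by the local background, the values in parent and ΔSRR2-18 NSPCs were 3.79 and 13.2 at *Itgb4*, 3.32 and 6.12 at *Itgb3*, 6.53 and 11.7 at *Itga3*, 10.8 and 20.4 at *Itga5*, and 9.84 and 9.72 at *Timp2*. On that scale the *Itgb4* region alone of the 5 differed by at least 2-fold. The exact 95% binomial interval of the log2 ratio at the *Itgb4* region was 3.96 to 4.46, and it covers counting error only.

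The 5 largest ratios downward were at *Itga8*, *Itgb4*, *Itga9*, *Itga4* and *Mmp15*. The *Itga8* region, chr2:12316038-12316991, lay 14614 bp from the TSS and had a height of 93.9 in parent and 14.0 in ΔSRR2-18 NSPCs, 6.69-fold lower. An *Itgb4* region within an intron of *Sap30bp*, chr11:115956415-115957088, had 74.0 and 14.2 (5.19-fold lower), so this gene had shared regions at both ends of the range. *Itga9* (chr9:118688356-118689590) had 34.2 and 7.02, *Itga4* (chr2:79214712-79215730) 30.1 and 9.92, and *Mmp15* (chr8:95346490-95347342) 33.9 and 13.9. By fold enrichment the values in parent and ΔSRR2-18 NSPCs were 24.3 and 13.4 at *Itga8* and 10.6 and 3.73 at *Itgb4*. They were 11.9 and 6.73 at *Itga9* and 10.1 and 7.96 at *Itga4*. The *Mmp15* region was higher in ΔSRR2-18 NSPCs on that scale, at 10.3 against 3.88. The *Itgb4* region alone of the 5 was at least 2-fold lower by fold enrichment.

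**Figure D4:**
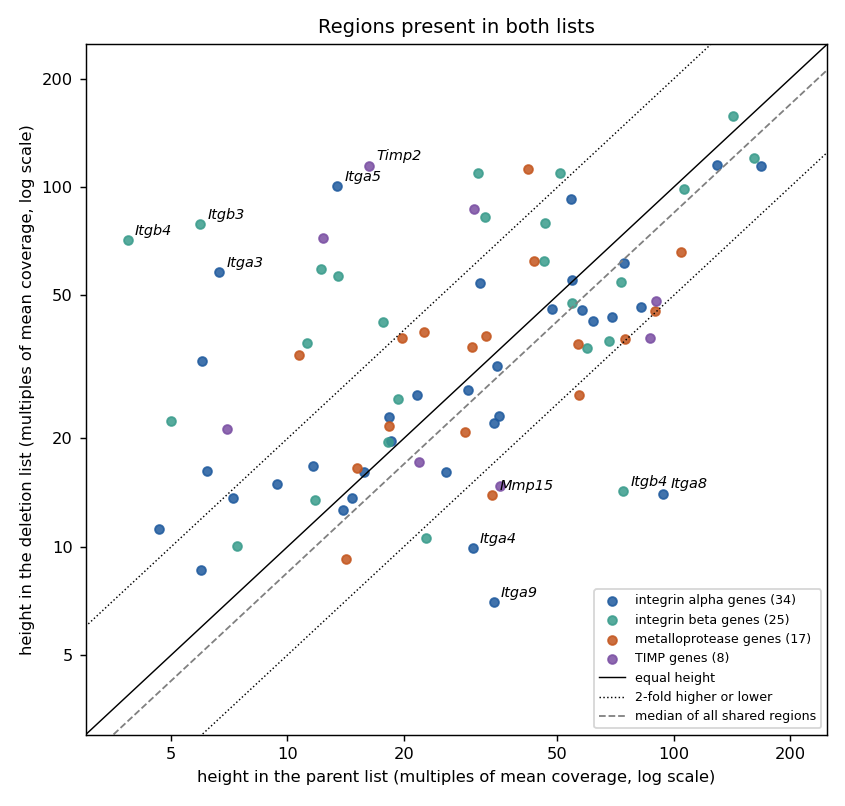
Height in the ΔSRR2-18 list against height in the parent list for the 84 shared regions, both in multiples of mean coverage on log axes, coloured by gene family. Dotted lines mark a 2-fold difference and the dashed line the median of all shared regions. The 5 regions farthest above and the 5 farthest below equality carry their gene's name, from *Itgb4* (71.1 against 3.86) to *Itga8* (14.0 against 93.9).

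The rule that chose the regions used their position alone, so motifs at the summits are a separate measure. An AP-1 match within 100 bp of the summit was found in 61 of the 138 deletion-only regions (44.2%, 95% Wilson interval 36.2 to 52.5), against 41.6% of all deletion-only regions. Among the 70 parent-only regions 1 had a match (1.43%), against 2.55% over the whole list. The integrin and metalloprotease genes thus followed the whole lists in this respect. The share was 42.6% at alpha subunits (20 of 47), 44.9% at beta subunits (22 of 49), 48.6% at metalloproteases (17 of 35) and 28.6% at TIMPs (2 of 7), and the intervals of the 4 families overlapped. In shared regions, 20 of 86 ΔSRR2-18 regions held a match (23.3%, 15.6 to 33.2), against 12.8% of all shared regions of that list. In 30 of the 61 deletion-only regions with a match, the nearest one lay within 20 bp of the summit.

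The other motifs were found at shares close to or below those of the whole lists. SOX matches, ACAATGG or ACAAAGG on either strand, stood in 15.7% of parent-only regions, where the whole list had 15.1%, and in 6.52% of deletion-only regions, where it had 6.55%. TEAD matches (ACATTCC) stood in 6.52% of deletion-only regions against 9.88%, RUNX matches (TGTGGTT) in 5.80% against 8.41%, and ETS matches (AGGAAGT or CGGAAGT) in 10.1% against 9.24%. The NFI palindrome was found in none of the 378 windows and in 0.24% or less of any class of all regions. Of 96 AP-1 matches in the windows, 1 overlapped a match to another motif. For comparison, 5.20% of the 32851 RefSeq promoter windows (GRCm38.p6, all of one length) held an AP-1 match. Promoter windows were matched for 28 of the 38 genes and held one at 6, which were *Itga9*, *Mmp3*, *Mmp7*, *Mmp10*, *Mmp12* and *Mmp13*. *Mmp3* and *Mmp7* were among these although neither list held a region at their promoters.

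**Figure D5:**
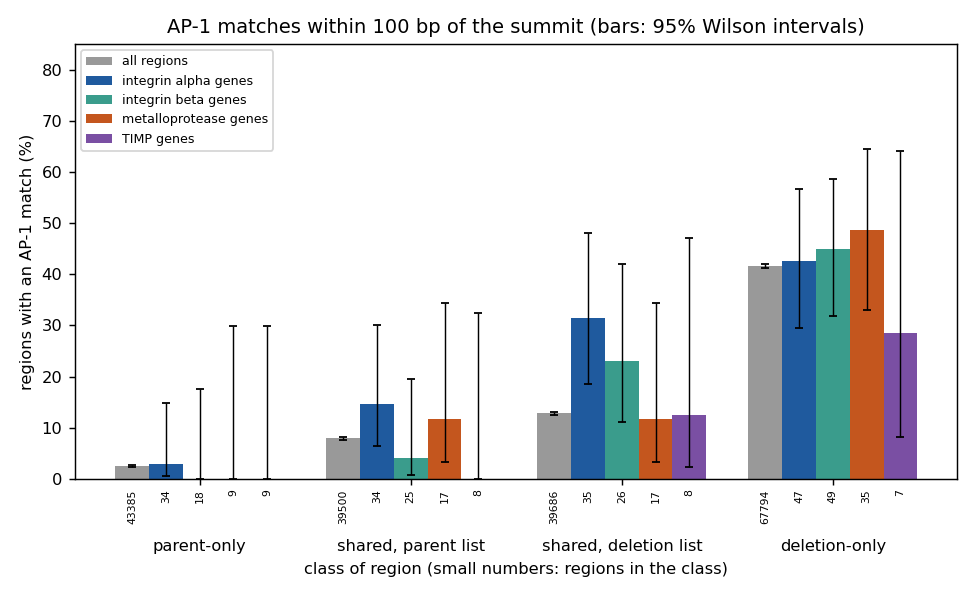
Share of regions with an AP-1 match within 100 bp of the summit, by class of region, for all regions and for each gene family, with 95% Wilson intervals. The number under each bar is the number of regions. The deletion-only bars range from 28.6% to 48.6% with wide intervals around the 41.6% of all deletion-only regions, and the parent-only bars are at or below 2.94%.

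Genes that work with the integrins and metalloproteases were counted in the same way. Of 16 matrix ligand genes, such as *Fn1* and the laminin and collagen genes, 12 had more deletion-only than parent-only regions and 2 had fewer, and 73 of their 116 ΔSRR2-18 regions (62.9%) and 30 of their 73 parent regions (41.1%) were specific. Over all genes and regions the matching shares were 45.1% with more, 27.3% with fewer, 63.1% deletion-only and 52.3% parent-only. *Col1a2* had 4 parent and 13 ΔSRR2-18 regions, *Lama2* 1 and 7, and *Tnc*, a ligand of the alpha 9 integrin, 11 and 16. *Lama5* and *Lamc1*, which encode laminin chains, went the other way, with 7 and 6 parent-only against 3 and 5 deletion-only regions. Of 15 adaptor genes that link integrins to actin, 8 had more deletion-only regions and 4 had fewer, with 83 of 143 (58.0%) and 65 of 126 (51.6%) specific, all near the shares of the whole lists. *Bcar1* had 9 and 16 regions and *Parva* 12 and 21, whereas *Tln2* had 17 and 12 and *Ptk2*, which encodes focal adhesion kinase, 11 and 7. Of 12 further genes, mostly other metalloproteases and inhibitors, 8 had more and 1 had fewer, with 18 of 32 (56.3%) and 4 of 18 (22.2%) specific. The 12 include *Bsg*, which is neither, and *Mmp1a*, which is not classed as protein-coding and so could hold no region. At *Timp1* the promoter height was 36.3 in parent and 88.2 in ΔSRR2-18 NSPCs, the opposite direction to *Timp2* and *Timp3*, and at *Timp4* it was 50.7 and 0.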

How the data were processed

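ATAC-seq of 6 cultures (3 parent, 3 ΔSRR2-18) was analysed from 4 deposited peak lists in mm10, a conservative and an optimal list per genotype. Per the study's methods, the authors used the ENCODE ATAC-seq pipeline and MACS2 and combined cultures by IDR, and the submitters' notes also name deepTools. Aligner settings are not given in the sources used here. The authors deposited for each peak an IDR score, a fold enrichment (a ratio to local background), −log10 p and q values (q was not used) and a summit offset. The lists merge both alleles, and *M. castaneus* reads that differ from mm10 may be undercounted.

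Summit reads were solved from fold enrichment and −log10 p (MACS2 pseudocount of 1), and came out whole within 0.05 for 99.9993% of parent and 100% of ΔSRR2-18 peaks. They are pileup heights and not distinct fragments. Overlap meant at least 1 bp. Promoter heights and promoter calls used regions whose interval reached within 1 kb of a TSS, and counts of regions within 1 kb used the summit. Motifs were exact matches on both strands, and Wilson and binomial intervals cover counting error only. Python 3.11.15, numpy 2.4.6, pandas 2.3.3 and scipy 1.17.1 were used. Read recovery and overlap calls were tested on simulated data, and gene assignment was not.

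The genes, gene lists and markers were chosen with earlier results of these data known. All 38 genes are given by their counts. By rule, values were drawn from regions at promoters and from the 3 strongest per family and direction by −log10 p. The 5 largest ratios in each direction among shared regions were given as well. The promoter heights in the text are a selection, and the plot of promoter heights covers each gene. Fewer than 3 of the strongest regions are given for the metalloprotease parent-only regions and for the TIMP regions in each direction. Other region heights, such as those of distal *Itga7*, *Itga9*, *Itgb1*, *Itgb2*, *Mmp16*, *Mmp17* and chromosome 9 cluster regions, were added after they were seen. *Mmp1a*, *Mmp1b*, *Mmp20* and *Mmp27* were described after their values were seen.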

Additional observations from a re-analysis of the deposited data

How the results depend on the processing

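No paired analysis was possible because the lists are pooled over cultures, and for the same reason no culture could be left out. The main counts at the 38 genes were 154 parent and 224 ΔSRR2-18 regions, 70 of them parent-only and 138 deletion-only. They stayed within 1.5 times of these values with the optimal lists, an IDR score of at least 830, 50% reciprocal overlap, absence judged against the optimal lists as well, lists of equal length, genes assigned by gene body first, and a minimum height of 5, an alternative chosen after seeing the data. Merging overlapping intervals changed nothing, since no intervals of a list overlap. A gene distance of 10 kb gave 74 and 95 regions, 25 parent-only and 46 deletion-only, and left 9 of the 21 higher and 4 of the 9 lower shared regions, as fewer regions were counted. A 1.5-fold limit raised the lower shared regions to 22, and fold enrichment in place of height lowered the higher ones to 9; the cause of the latter was not tested. A motif window of 50 bp, which is a shorter search, gave an AP-1 match in 34.8% of deletion-only regions against 44.2%. At the 6 chromosome 9 genes the optimal lists had 2 parent regions in place of 0, and the deletion-only regions numbered 8 within 10 kb and 10 with lists of equal length, against 14.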
